A study of Mus musculus with 12 samples.

Results

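Capillary endothelial cells sorted for strong surface CD200 were set against endothelial cells labelled arterial, both from mouse bone marrow, across every gene that could be tested. The members are 6 of the series' 12 libraries, chosen by their labels: 3 of CD200-high capillaries and 3 of arterial cells, with 17086 of the 17362 genes in the table tested. Both groups came from untreated B6 mice, as RNA of cells freed from crushed tibia, femur and iliac bones, and no age is given. CD200-high capillaries carry the gate CD200Hi, Sca1+, CD31+, EMCN- and CD45-, and arterial cells the gate CD200-, Sca1+, CD31+ and CD45-. The arterial label thus names no arterial antigen and no EMCN gate. Triplicates of each population were prepared from 6 mice. Whether mice were pooled, and whether 1 mouse gave both populations, is not stated, so p-values measure the spread between these samples only. The remaining 6 libraries, type H vessels (EMCN+) and cells labelled sinusoidal, entered the fit to estimate the spread.

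Arteries bring oxygenated blood under pressure into the marrow and are known for connexins of the gap junction, Notch ligands and an elastic wall. Capillaries exchange solutes and lipids across thin cells with caveolae and diaphragms, and those next to growing bone lie beside osteoblasts, the cells that secrete bone collagen. CD200 is a surface protein that restrains myeloid cells through its receptor, and a gate for it separates cells by that protein only.

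The libraries compared held 7.33 to 16.2 M listed reads (M, 1000000 reads), of which the 10 most abundant genes took 14.3 to 17.9% in CD200-high and 6.89 to 8.9% in arterial libraries. Reads were listed for 14535 to 14845 genes in CD200-high and for 15934 to 16569 in arterial libraries. Levels are log2 CPM, the log2 of counts per 1000000 with 0.5 read added, given in the order of replicates 1, 2 and 3. Differences are CD200-high minus arterial ± SE on that log2 scale, which understates changes of genes with few reads, with Benjamini-Hochberg adjusted p from limma. A gene was called at an adjusted p under 0.05, which 12.9% of all genes met, 4.75% higher and 8.15% lower in CD200-high. In 32.2% of all genes the 3 values of one population did not overlap the 3 of the other, 13.3% higher and 19% lower in CD200-high. The median difference over all genes was -0.22. It moved to -0.41 with equal totals of listed reads and the share of calls that were higher from 36.8 to 24.6%, and it moved to -1.5, with 1.88% of calls higher, when every library was shifted to the same median of pan-endothelial genes. That shift lowers every difference by 1.28, so each statement below that a gene or list was higher by less than this turns round under it. Each count of calls is followed in brackets by its range over the 12 fits that left out 1 library each, with the libraries whose absence moved it by over 1.5 times. A gene that was not called is not thereby shown to be equal. In bulk samples, fewer cells of a type and less RNA per cell cannot be told apart.

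**Figure D1:**
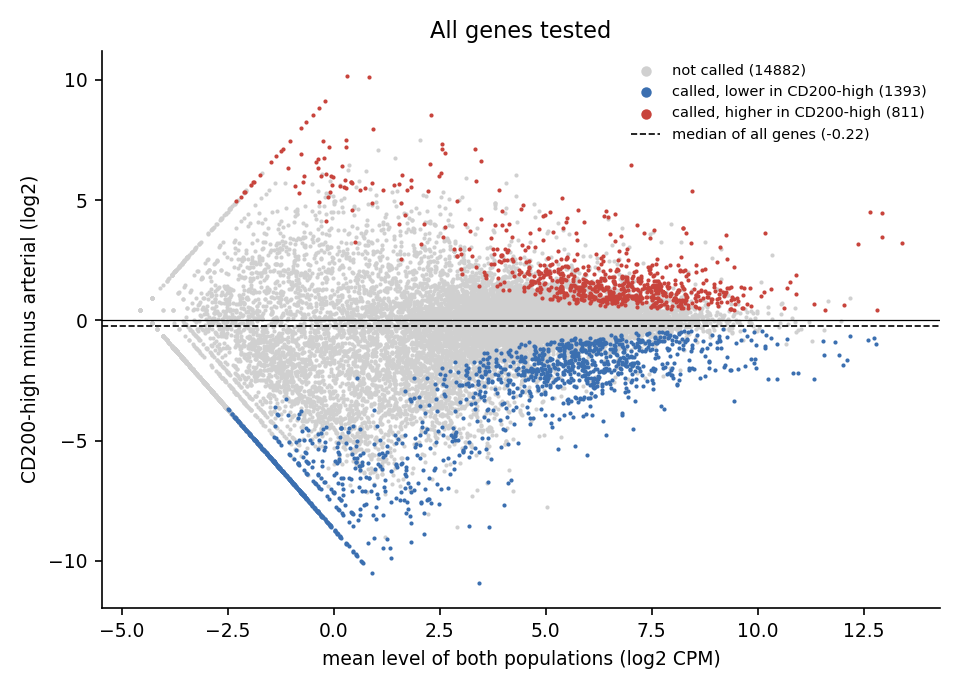
Difference between CD200-high and arterial libraries (log2, vertical axis) against the mean level of both populations (log2 CPM, horizontal axis) for the 17086 genes tested. Each point is a gene, with 811 called higher in red and 1393 called lower in blue; the diagonal edges are genes with no reads in one population, and the dashed line is the median of -0.22.

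The antigens of the gates gave a mixed check of the labels. Cd200 stood at 9.81, 9.83 and 9.8 log2 CPM in CD200-high and at 7.61, 7.63 and 7.81 in arterial libraries, a difference of 2.13 ± 0.16 (adjusted p = 4.74e-05). The arterial libraries, gated as CD200-, thus held its transcript at a level that varied little between them. Pecam1, which encodes the CD31 of both gates, stood at 7.92, 8.22 and 8.99 against 7.46, 7.19 and 7.09 (difference 1.13 ± 0.24, adjusted p = 0.0101), and CD200-high replicate 3 was the highest of the 6. Emcn, the gene of endomucin, stood at 7.84, 8.25 and 8.68 in the population gated as EMCN- and at 6.1, 7.0 and 6.58 in arterial libraries, a difference of 1.69 ± 0.37 (adjusted p = 0.0124) that missed the threshold without arterial replicate 1 (adjusted p = 0.0552). The transcript therefore did not follow that gate. Ptprc, the gene of CD45, by which both gates exclude blood cells, stood at 5.48, 4.69 and 5.98 against 7.44, 7.17 and 7.63 (difference -2.03 ± 0.36, adjusted p = 0.00419), with no overlap. Ly6a, the gene of Sca1, differed by 0.41 ± 0.32 (adjusted p = 0.449) and overlapped.

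Genes shared by all endothelium were higher in CD200-high libraries. Of 18 pan-endothelial genes, 9 were called higher (7 to 13), their median difference was 1.26 against -0.22 for all genes (-0.02 with equal pan-endothelial medians, by construction), and 16 had no overlap. Summed, they made up 0.516 ± 0.165% of listed reads in the CD200-high against 0.237 ± 0.0349% in the arterial libraries (mean ± SD, n = 3). Flt1, a receptor and decoy for VEGF, stood at 8.0, 8.05 and 8.49 log2 CPM in CD200-high and 6.12, 6.49 and 6.34 in arterial libraries. All 3 CD200-high values lay well above the arterial ones, and the difference was 1.86 ± 0.25 (adjusted p = 0.000986). Eng, the endothelial co-receptor for BMP9 and TGF-beta, stood at 7.93, 8.09 and 8.24 against 6.8, 6.94 and 6.6 (difference 1.31 ± 0.19, adjusted p = 0.00142). Esam, an adhesion protein of endothelial junctions, was higher by 1.25 ± 0.23 (adjusted p = 0.00528), and Tie1, the orphan partner of the angiopoietin receptor, by 2.1 ± 0.3 (adjusted p = 0.00116). Cdh5, the VE-cadherin gene that defines endothelium, went from 7.04, 7.46 and 7.36 to 7.11, 7.76 and 8.41, overlapped and was not called (0.47 ± 0.44, adjusted p = 0.538; -0.81 with equal pan-endothelial medians). Within the CD200-high libraries the summed share of pan-endothelial genes was 0.37, 0.484 and 0.695% in replicates 1, 2 and 3, while that of the osteoblast and osteocyte list below was 8.65, 8.06 and 6.69%. The library richest in vessel transcripts was therefore the poorest in those of bone cells.

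Of the genes of vessel growth and guidance, VEGF receptors and neuropilins gave several calls and the guidance families few. Nrp2, a co-receptor for VEGF-C and semaphorins, had 9.41, 9.66 and 8.5 log2 CPM in CD200-high and 5.78, 6.21 and 5.25 in arterial libraries, with a gap of more than 2 between the groups. Its difference of 3.45 ± 0.42 (adjusted p = 0.000521) was the largest of the 9 genes of VEGF and neuropilin, of which 4 were called higher (2 to 4, without arterial 1 or 3 or CD200-high 3). Aplnr, the apelin receptor, was higher by 2.42 ± 0.23 (adjusted p = 0.000175). Of the 39 genes of semaphorins, plexins, ephrins, Slits and netrins, 2 were called higher (2 to 4, without type H 3), a share near that of all genes. They were Efna1, an ephrin ligand, at 8.47, 8.11 and 8.68 against 6.74, 7.0 and 6.65 (difference 1.62 ± 0.29, adjusted p = 0.00411), and Sema6a, a transmembrane semaphorin, at 6.61, 6.55 and 7.48 against 5.25, 4.64 and 4.97 (difference 1.93 ± 0.37, adjusted p = 0.0064). Neither overlapped. Sema3c, a secreted semaphorin, had 3.45, 4.13 and 4.92 log2 CPM in arterial and no reads in CD200-high libraries, at least 52.2-fold lower against a floor of 3 reads per library (adjusted p = 0.000308), and was the 1 called lower (1 to 2, without CD200-high 1 or type H 3). Every such bound, here and below, sets a mean log2 level against the mean floor, so a single library can give a smaller fold. The list's median was 1.08 (-0.2 with equal pan-endothelial medians), with 16 members higher and 6 lower without overlap.

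Junction genes were higher in part. Of 23 cadherins, claudins, connexin and JAM genes, 6 were called higher (3 to 6, without arterial 3 or CD200-high 3) and the median was 1.01 (-0.27 with equal pan-endothelial medians). Gja1, the connexin 43 gene of gap junctions, stood at 11.85, 11.59 and 11.25 log2 CPM against 9.84, 10.12 and 9.97 (difference 1.59 ± 0.21, adjusted p = 0.000809). F11r, which encodes the tight junction protein JAM-A, stood at 7.89, 7.98 and 8.47 against 7.24, 6.67 and 6.71 (difference 1.24 ± 0.22, adjusted p = 0.00402; -0.04 with equal pan-endothelial medians). In both genes the lowest CD200-high library lay above the highest arterial one. Gja1 is also expressed by osteoblasts, whose list was higher in the same libraries, and its source was not tested. Mef2c, a transcription factor of vessels and of several other lineages, was the most clearly different of 27 endothelial transcription factor genes, at 9.33, 8.95 and 9.03 against 7.13, 6.38 and 6.81 (difference 2.33 ± 0.21, adjusted p = 0.000129). Elk3, an ETS factor, was higher by 1.77 ± 0.26 (adjusted p = 0.00132), while Hhex, a homeobox factor of endothelial and blood cells, was lower (-1.24 ± 0.24, adjusted p = 0.00598).

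As a list, genes that define arteries did not set the arterial libraries apart from the CD200-high ones. Of 18 arterial genes tested, 2 were called lower in CD200-high (1 to 3, without arterial 1, 2 or 3, CD200-high 1 or 3, type H 1 or sinusoidal 1, 2 or 3) and the median was -0.15. None was called higher by limma here (none at an unadjusted p under 0.05 either), while limma voom on recovered reads called 2 higher and a fit of only the 6 libraries called 3. Without overlap, 6 of the 18 were higher in CD200-high and 3 lower, beside 13.3% and 19% of all genes. Gja4, the arterial connexin 37 gene, had 7.91, 8.31 and 7.35 log2 CPM in CD200-high and 5.05, 5.92 and 5.58 in arterial libraries, with no overlap. The difference of 2.34 ± 2.36 missed the threshold in the 12-library fit (adjusted p = 0.571) and passed with the 6 libraries alone (adjusted p = 0.00623). Dll4, the Notch ligand of arteries and tip cells, had 6.55, 6.63 and 6.64 against 4.93, 4.84 and 5.6, again without overlap (1.49 ± 1.06, adjusted p = 0.4; adjusted p = 0.0155 with the 6 libraries alone). The type H and sinusoidal libraries, which enter the spread, held Gja4 at 1.4 ± 5.5 and -0.49 ± 4.07 (SD over 3 libraries), far more scattered than the 6 compared. Gja5, the connexin 40 gene, stood at 5.27, 6.07 and 5.71 in CD200-high and 4.71, 4.87 and 4.5 in arterial libraries, without overlap. It was not called (difference 0.99 ± 0.98, and -0.29 with equal pan-endothelial medians). In type H libraries Gja5 stood at -4.61 ± 0.8 and in sinusoidal libraries at -4.86 ± 1.11. Both populations compared therefore held connexin 40 reads, which the other populations nearly lacked. Of 15 Notch pathway genes limma called none, 2 higher and 2 lower at an unadjusted p under 0.05, and voom called 2 higher.

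Matrix genes of the arterial wall went both ways. Fbln5, an elastic fibre organiser, stood at 7.87, 8.62 and 9.05 log2 CPM in arterial and 6.12, 6.63 and 6.87 in CD200-high libraries, without overlap (difference -1.97 ± 0.42, adjusted p = 0.00999). Mgp, which encodes an inhibitor of vessel calcification, stood at 8.78, 8.42 and 8.37 against 6.42, 7.07 and 5.88 (difference -2.07 ± 0.36, adjusted p = 0.0032). Of 24 genes of elastic fibres and arterial matrix 7 were called lower (3 to 8, without arterial 1, 2 or 3), while the list's share of the reads was higher at 0.973 ± 0.195% of listed reads in the CD200-high against 0.447 ± 0.0444% in the arterial libraries (mean ± SD, n = 3). The 1 gene called higher (1 to 4, without CD200-high 3 or type H 2) was Bgn, a small proteoglycan of both bone and vessel wall, higher by 1.9 ± 0.28 (adjusted p = 0.00146); the 6 libraries alone gave 5 higher and 7 lower, and voom 7 and 9. The median was 0.07 (-0.12 with equal totals of listed reads), with 7 members higher and 11 lower without overlap. Fbln5 and Mgp also occur in reticular stroma and fibroblasts. The share of the reticular list below was lower in CD200-high libraries and that of the fibroblast list higher, and their part in these differences was not tested.

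Capillary genes were split. Of 19 capillary genes 6 were called higher (3 to 8, without arterial 1, 2 or 3 or CD200-high 3) and 2 lower (1 to 2, without arterial 3), with a median of 0.88 (-0.4 with equal pan-endothelial medians). Plvap, which forms the diaphragms of fenestrae and caveolae, showed the widest gap, at 7.33, 6.74 and 8.52 log2 CPM against 2.9, 4.17 and 3.28 (difference 4.08 ± 0.7, adjusted p = 0.00312; adjusted p = 0.0911 with voom). Fabp4, a fatty acid carrier of capillaries and fat cells, stood at 10.92, 11.35 and 12.06 against 10.29, 10.41 and 10.33 (difference 1.1 ± 0.24, adjusted p = 0.0122; -0.18 with equal pan-endothelial medians). Neither gene overlapped. Car4, a carbonic anhydrase on the capillary surface, had 6.31, 6.62 and 7.03 against 5.69, 5.16 and 5.28 and did not overlap either, was not called with 12 libraries (1.28 ± 1.72, adjusted p = 0.683) and passed with the 6 alone (adjusted p = 0.0285). Lpl, the lipase that frees fatty acids from lipoproteins and is made by fat and stromal cells, was lower, at 7.1, 7.23 and 7.08 against 8.38, 9.16 and 9.22 (difference -1.79 ± 0.34, adjusted p = 0.00582). Of 15 sinusoidal and venous genes 4 were called higher (1 to 4, without arterial 1, 2 or 3, CD200-high 1, 2 or 3 or type H 1 or 3), among them Tfpi, an inhibitor of coagulation, at 6.87, 6.05 and 7.03 against 4.2, 5.3 and 3.62 (difference 2.28 ± 0.42, adjusted p = 0.00509; adjusted p = 0.113 with voom). Fcgr2b, an inhibitory antibody receptor, was the 1 called lower (0 to 2, without arterial 1, 2 or 3 or CD200-high 2 or 3) (-1.54 ± 0.4, adjusted p = 0.0255; adjusted p = 0.166 with voom). Stab2, the scavenger receptor that defines sinusoids, overlapped and was not called (0.96 ± 0.66, adjusted p = 0.38; -0.32 with equal pan-endothelial medians). The 6 lymphatic genes included no call by limma or voom, with 3 lower at an unadjusted p under 0.05.

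**Figure D2:**
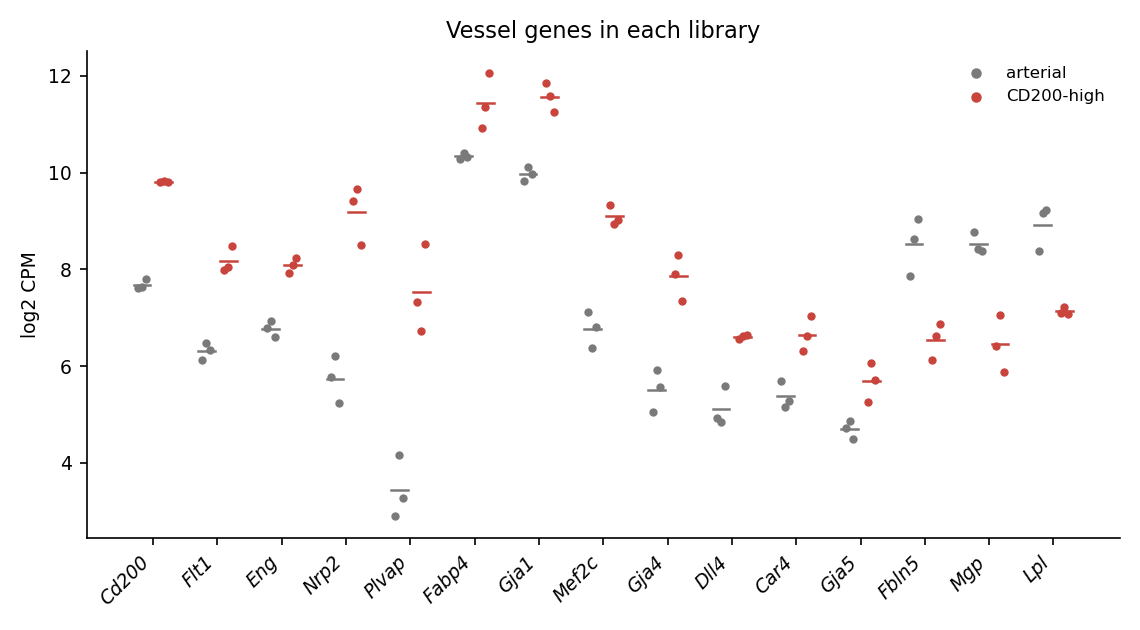
Level (log2 CPM, vertical axis) of 15 vessel genes in the 3 arterial (grey) and 3 CD200-high (red) libraries, with bars at the means. Receptor, diaphragm and connexin genes sit higher in CD200-high libraries and the wall matrix genes Fbln5 and Mgp and the lipase gene Lpl sit lower. Gja4, Dll4, Car4 and Gja5 do not overlap although the fit of 12 libraries did not call them.

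Surface genes that restrain or engage immune cells went both ways. Of 17 such genes 6 were called higher (3 to 6, without arterial 3), Cd200 among them, and 4 lower (2 to 4, without arterial 1, 2 or 3 or CD200-high 1 or 3), with a median of -0.24 (0.11 after quantile normalization). Voom called 3 higher and 4 lower, and the 6 libraries alone 3 higher and 2 lower. The gates sort by the protein of Cd200, so its call is no separate result. Cd59a, which blocks the complement pore, stood at 8.04, 8.44 and 8.02 log2 CPM in CD200-high and 6.18, 5.99 and 6.16 in arterial libraries, a gap of nearly the size of that of Cd200 (difference 2.06 ± 0.23, adjusted p = 0.000386). Lgals1, a secreted galectin that dampens T cells, stood at 10.14, 9.6 and 9.58 against 8.59, 8.67 and 8.47 (difference 1.2 ± 0.15, adjusted p = 0.000738; -0.08 with equal pan-endothelial medians). Cd86, a costimulator of T cells borne by antigen-presenting cells, had 2.77, 5.48 and 4.21 in arterial and no reads in CD200-high libraries, at least 51.6-fold lower (adjusted p = 0.00121). For adhesion of leukocytes, Icam2, an integrin ligand of resting endothelium, was higher (difference 1.0 ± 0.14, adjusted p = 0.00102; -0.28 with equal pan-endothelial medians). Vcam1, the ligand of the integrin VLA-4, stood at 5.03, 5.97 and 5.08 against 7.99, 8.94 and 8.65 (difference -3.17 ± 0.3, adjusted p = 0.000191), and Selplg, a selectin ligand of leukocytes, was lower (-2.27 ± 0.25, adjusted p = 0.000348). Vcam1 and Selplg are also known from reticular stroma, macrophages and other blood cells, which were lower in CD200-high libraries as well.

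Genes of BMP and TGF-beta signalling were called in both directions. Id3, an inhibitor of helix-loop-helix factors that BMPs induce, varied very little within groups, at 10.35, 10.39 and 10.33 log2 CPM in CD200-high and 9.04, 8.92 and 9.05 in arterial libraries (difference 1.36 ± 0.11, adjusted p = 4.97e-05). Of 45 genes of BMP and TGF-beta signalling 6 were called higher (2 to 6, without arterial 1, 2 or 3 or CD200-high 1) and 6 lower (4 to 7), with a median of 0.11 (-0.08 with equal totals of listed reads). The secreted inhibitors Chrdl1 and Fst were among the lower ones. Chrdl1, a BMP antagonist of stroma, stood at 6.76, 8.47 and 8.33 in arterial and -2.11, -1.15 and 3.76 in CD200-high libraries (difference -7.69 ± 1.23, adjusted p = 0.00221), with replicate 3 the highest of the CD200-high values. Fst, which binds activins, had 3.18, 3.21 and 4.45 in arterial and no reads in CD200-high libraries, at least 35.6-fold lower (adjusted p = 0.00283). Tgfbr3, the betaglycan co-receptor, was lower by the fit as well (-1.44 ± 0.28, adjusted p = 0.00648). Of 47 Wnt genes 3 were called higher (0 to 6, without arterial 1, 2 or 3, CD200-high 1, 2 or 3 or sinusoidal 2) and 6 lower (3 to 6, without arterial 2 or 3), with a median of -0.54 that turned to 0.46 after quantile normalization. Lgr5, a receptor for R-spondins, had 3.9, 2.19 and 3.58 in arterial and no reads in CD200-high libraries, at least 27.2-fold lower (adjusted p = 0.000776).

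Immediate early genes, which growth factors, flow and the handling of cells all induce, were higher in part. Of 27 such genes 7 were called higher (2 to 9, without arterial 2 or 3) and the median was 0.81 (-0.47 with equal pan-endothelial medians). Fos stood at 10.89, 11.11 and 10.91 log2 CPM against 9.77, 9.63 and 9.62, with no overlap and a difference of 1.3 ± 0.22 (adjusted p = 0.00281). Ier3, a stress response gene, stood at 6.69, 7.51 and 7.1 against 5.93, 5.26 and 5.21 (difference 1.64 ± 0.31, adjusted p = 0.00596). The time between crushing and lysis is not given per library, and its part was not tested.

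Bone collagen and the machinery that makes it were higher in CD200-high libraries. Col1a1, a chain of type I collagen, reached 14.39, 13.82 and 13.7 log2 CPM in CD200-high and 10.94, 10.92 and 10.46 in arterial libraries, and the groups lay about 3 apart (difference 3.19 ± 0.61, adjusted p = 0.00596). Col5a2, which nucleates type I fibrils, stood at 10.4, 9.91 and 9.85 against 6.96, 7.0 and 6.47 (difference 3.24 ± 0.48, adjusted p = 0.00139). Col24a1 and Col22a1, minor collagens of bone and of tissue junctions, were higher by 4.62 ± 0.85 (adjusted p = 0.00482) and by 4.32 ± 0.93 (adjusted p = 0.0112). Of 22 fibrillar and associated collagens 8 were called higher (6 to 8) and 3 lower (1 to 7, without arterial 2 or 3, CD200-high 1 or type H 2 or 3), and together they took 4.32 ± 0.866% of listed reads in the CD200-high against 0.769 ± 0.106% in the arterial libraries (mean ± SD, n = 3). The median of the list was nevertheless -0.91, with 8 members higher and 8 lower without overlap. Col3a1, the collagen of vessel walls and fibroblasts, stood at 6.83, 6.96 and 6.07 against 8.78, 9.23 and 8.77 without overlap. It was not called with 12 libraries (-2.31 ± 0.96, adjusted p = 0.145) and passed with the 6 alone (adjusted p = 0.00397). Col14a1, of fibroblasts and tendon, had 3.92, 4.1 and 2.84 in arterial and no reads in CD200-high libraries, at least 35.8-fold lower (adjusted p = 0.00667).

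Enzymes and chaperones that fold, modify and crosslink collagen were higher in many cases. Of 33 genes of collagen processing and secretion 15 were called higher (12 to 17), with 25 higher and 2 lower without overlap and a median of 1.62 (0.34 with equal pan-endothelial medians). Creb3l1, a membrane-bound transcription factor that osteoblasts need for collagen secretion, stood at 8.2, 7.11 and 6.91 log2 CPM against 4.81, 3.46 and 3.92 (difference 3.34 ± 0.52, adjusted p = 0.00192). P4ha1, the catalytic subunit of prolyl hydroxylase, stood at 8.58, 8.11 and 7.22 against 5.71, 5.54 and 5.11 (difference 2.52 ± 0.46, adjusted p = 0.00441). Plod2, a lysyl hydroxylase of bone collagen, stood at 8.79, 8.25 and 7.83 against 5.32, 4.9 and 4.7 (difference 3.32 ± 0.37, adjusted p = 0.000348). In these genes replicate 1 was the highest and replicate 3 the lowest CD200-high library, the order of the osteoblast share given above. So few libraries can share an order without a link, and a link was not tested. Serpinh1, the collagen chaperone HSP47, was higher by 2.22 ± 0.35 (adjusted p = 0.00201), Fkbp10, a prolyl isomerase of the same step, by 2.31 ± 0.33 (adjusted p = 0.00118), and Lox, which crosslinks secreted fibrils, by 2.55 ± 0.37 (adjusted p = 0.00139). Sec23a, of the COPII coat that carries procollagen out of the endoplasmic reticulum, stood at 7.16, 7.0 and 6.88 against 5.59, 5.09 and 5.49 (difference 1.62 ± 0.22, adjusted p = 0.000995). Of 23 basement membrane genes 1 was called higher (1 to 3, without arterial 3, type H 2 or sinusoidal 1 or 3), and 4 with voom or the 6 libraries alone; the median was 0.89 (-0.39 with equal pan-endothelial medians), with 10 members higher and 1 lower without overlap. The 1 called was Col4a1, the type IV collagen of vessels, at 9.9, 10.19 and 10.47 against 8.96, 9.4 and 9.0 (difference 1.07 ± 0.2, adjusted p = 0.00509; -0.21 with equal pan-endothelial medians).

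Genes of the general secretory pathway were higher in part, while BiP, its main chaperone, was not called. Of 36 genes of folding and secretion in the endoplasmic reticulum 13 were called higher (10 to 14) and 1 lower in this and each of those fits, with a median of 0.52 (-0.76 with equal pan-endothelial medians). Kdelr2, a receptor that returns escaped residents, stood at 9.59, 9.1 and 8.92 log2 CPM against 7.17, 7.19 and 7.09 (difference 2.06 ± 0.2, adjusted p = 0.000197), and Sec61a1, the channel of the translocon, at 10.03, 9.74 and 9.26 against 8.31, 8.3 and 8.19 (difference 1.41 ± 0.19, adjusted p = 0.000826). Sec31a, of the outer COPII coat, was higher by 1.63 ± 0.26 (adjusted p = 0.00218). Hspa5, the chaperone BiP, stood at 9.15, 9.17 and 8.46 against 9.01, 9.39 and 9.0 and overlapped (-0.2 ± 0.21, adjusted p = 0.571; 0.03 without CD200-high replicate 3). Sdf2l1, a partner of BiP, was the 1 called lower (-1.27 ± 0.28, adjusted p = 0.0134; adjusted p = 0.0541 with voom). The endoplasmic reticulum stress element, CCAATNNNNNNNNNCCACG on either strand, was in the promoter windows of 7 of 29 list genes that have a window, and limma called 0 of these 7 (0 at an unadjusted p under 0.05, and 0 with voom). Of the other 22, 10 were called higher. The windows, 250 bases before to 50 after each start, come from RefSeq (GRCm38.p6), and 0.158% of all 15222 windows of tested genes hold these letters. The BiP promoter is shown over the 200 bases before its start (chr2:34771890-34772089, plus strand) with the element in capitals, as a gene that holds it and was not called.
Hspa5: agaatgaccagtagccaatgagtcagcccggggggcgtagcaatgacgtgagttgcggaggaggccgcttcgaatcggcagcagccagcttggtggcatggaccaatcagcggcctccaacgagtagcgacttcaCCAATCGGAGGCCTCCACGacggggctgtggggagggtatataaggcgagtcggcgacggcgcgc

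Genes of osteoblasts and osteocytes were higher in part in the same libraries. Their 28 members tested had a median of 3.11 and 22 did not overlap, all of these higher in CD200-high, and they took 7.8 ± 1% of listed reads in the CD200-high against 1.08 ± 0.111% in the arterial libraries (mean ± SD, n = 3). Limma called 6 of them higher with 12 libraries (5 to 13, without type H 2), 18 with the 6 libraries compared and 20 with voom. Bglap, the osteocalcin gene of mature osteoblasts, whose reads cannot be told apart with certainty from those of its near-copy Bglap2, stood at 15.39, 15.11 and 14.998 log2 CPM against 10.45, 10.88 and 10.81 (difference 4.45 ± 0.67, adjusted p = 0.00152). Sp7, the transcription factor osterix that defines the lineage, stood at 10.26, 9.3 and 8.5 against 6.78, 6.32 and 5.16 without overlap, at 3.27 ± 1.62 (adjusted p = 0.221) with 12 libraries and adjusted p = 0.00942 with 6. Runx2, the factor above it, overlapped, at 7.7, 6.14 and 6.49 against 5.64, 6.33 and 6.36 (0.67 ± 0.97; -0.62 with equal pan-endothelial medians). Bambi, a decoy receptor for BMPs, stood at 9.82, 9.48 and 8.99 against 6.24, 5.27 and 5.55 (difference 3.75 ± 0.37, adjusted p = 0.000197), and Kcnk1, a potassium channel, was higher by 4.5 ± 0.83 (adjusted p = 0.00476). Both gates took CD31+ and Sca1+ cells, and whether the collagen, processing and secretion genes above come from endothelial cells or from bone cells in the sort was not tested.

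**Figure D3:**
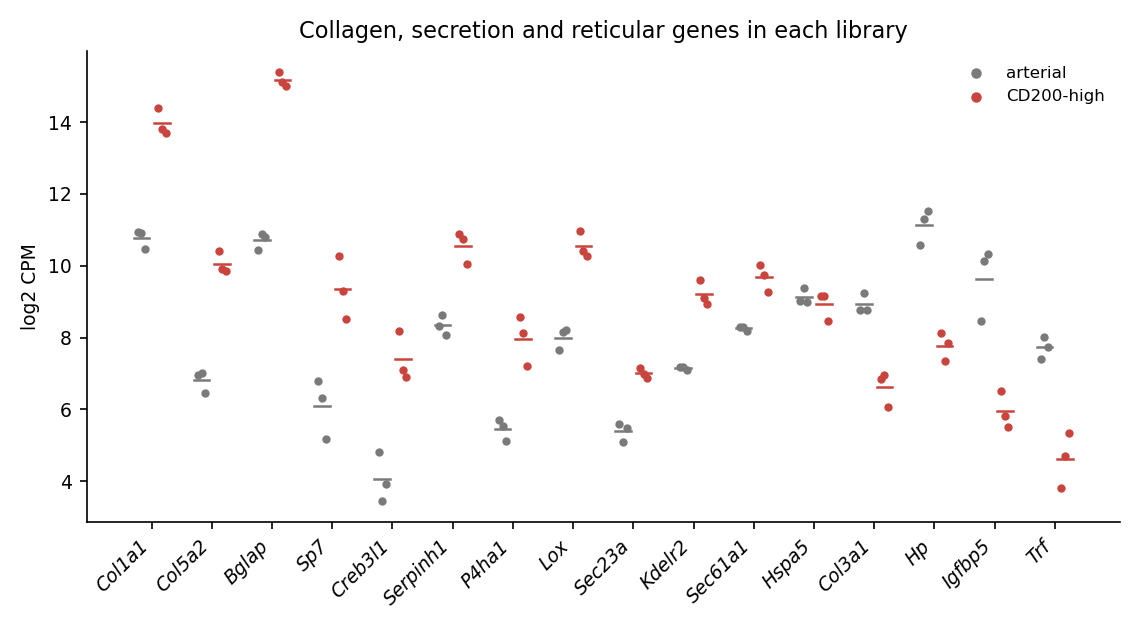
Level (log2 CPM, vertical axis) of 16 genes of bone collagen, its processing and secretion and reticular stroma in the 3 arterial (grey) and 3 CD200-high (red) libraries, with bars at the means. From Col1a1 to Sec61a1 the red points lie above the grey ones, Hspa5 overlaps, and Col3a1, Hp, Igfbp5 and Trf lie below.

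Reticular stroma of the marrow showed the reverse. Of 25 genes of these Cxcl12-rich, leptin receptor-bearing cells 15 were called lower in CD200-high (10 to 16) and 19 did not overlap, with a median of -3.12; the list took 0.287 ± 0.027% of listed reads in the CD200-high against 1.59 ± 0.564% in the arterial libraries (mean ± SD, n = 3). Hp, the haptoglobin gene, stood at 10.57, 11.29 and 11.53 log2 CPM in arterial and 8.13, 7.33 and 7.84 in CD200-high libraries (difference -3.36 ± 0.34, adjusted p = 0.000243). Igfbp5, a binding protein for insulin-like growth factors, stood at 8.47, 10.12 and 10.33 against 6.51, 5.82 and 5.52 (difference -3.7 ± 0.55, adjusted p = 0.00142), and Gdpd2, a phosphodiesterase, was lower too (-3.94 ± 0.65, adjusted p = 0.00272). Trf, the transferrin gene, stood at 7.42, 8.03 and 7.74 against 3.8, 4.69 and 5.33 (difference -3.12 ± 0.34, adjusted p = 0.000342); an unnamed gene model has identical reads, so that the gene they belong to is uncertain. Arterial replicate 1 was the lowest of the arterial libraries in Hp, Igfbp5 and Trf, and its share of the list was 0.948% against 1.82 and 2% in replicates 2 and 3. Adipoq, the adiponectin gene, is shared with fat cells, of whose 18 genes 2 were called higher (1 to 3, without arterial 1 or 3) and 4 lower (4 to 5). Apoe, an apolipoprotein of lipid-handling cells, was among the latter, at 10.3, 11.16 and 11.38 in arterial and 8.81, 8.82 and 9.23 in CD200-high libraries (difference -1.99 ± 0.29, adjusted p = 0.00142).

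Part of the chemokine and niche cytokine genes were lower. Of 35 chemokine and receptor genes 8 were called lower (6 to 13, without type H 3) and the median was -2.53 (-2.3 with genes without reads at the bound that a floor of 3 reads per library gives). Ackr1, a decoy receptor of venous endothelium and red cells, was the 1 called higher (2.04 ± 0.61, adjusted p = 0.0494), a call lost in 10 of the 12 fits that left out 1 library. Cxcl14, a chemokine of stroma, stood at 6.63, 7.98 and 7.89 log2 CPM in arterial and -2.11, 1.72 and 2.62 in CD200-high libraries (difference -6.76 ± 1.06, adjusted p = 0.00195), and Ccl11, which attracts eosinophils, at 5.64, 5.66 and 5.92 against 0.61, -0.32 and 0.76 (difference -5.39 ± 0.91, adjusted p = 0.00291). Igf1, a growth factor made by stroma and osteoblasts, was lower, at 4.92, 5.53 and 4.46 against 7.53, 8.05 and 7.53 (difference -2.73 ± 0.5, adjusted p = 0.00472). Il34, a ligand of the macrophage growth factor receptor, was lower by the same test (-6.97 ± 1.33, adjusted p = 0.00584). The receptor gene Lifr, for leukaemia inhibitory factor, was the 1 of 33 niche cytokine and receptor genes called higher (1 to 2, without sinusoidal 2 or 3), at 10.04, 9.998 and 9.15 against 7.66, 8.59 and 8.37 (difference 1.53 ± 0.27, adjusted p = 0.00408). In that list 7 were called lower (3 to 8, without arterial 1, 2 or 3), 7 members were higher and 11 lower without overlap, and the median was -0.47. As these genes are typical of reticular stroma, the lower share of that list stands beside them, and its part was not tested.

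Some cartilage and fibroblast genes were lower in CD200-high libraries. The 15 chondrocyte genes had a median of -5.44 (-4.33 with genes without reads at their bound), 12 were lower without overlap and 3 called lower (1 to 6, without arterial 1 or type H 1). Col9a2, a cartilage collagen, had 5.54, 5.71 and 4.89 log2 CPM in arterial and no reads in CD200-high libraries, at least 121-fold lower (adjusted p = 0.00971). Col2a1, the main cartilage collagen, was present in both, at 8.56, 8.32 and 7.49 against 9.03, 9.43 and 8.61, and was not called (-0.9 ± 2.3, adjusted p = 0.842). Of 15 genes of Sca1+ fibroblasts and tendon 5 were called lower (3 to 5, without arterial 2 or 3 or CD200-high 3) and none higher by limma (2 at an unadjusted p under 0.05, 4 with voom), while their summed share was higher, at 0.771 ± 0.0585% of listed reads in the CD200-high against 0.465 ± 0.0365% in the arterial libraries (mean ± SD, n = 3). Clec3b, the tetranectin gene, had 5.09, 5.25 and 5.47 in arterial and no reads in CD200-high libraries, at least 112-fold lower (adjusted p = 0.000722). Gsn, the actin-severing gelsolin, stood at 8.29, 8.11 and 7.64 against 9.58, 9.48 and 10.02 (difference -1.68 ± 0.31, adjusted p = 0.00471). Among 15 mural genes Kcnj8 was the 1 called (1 to 2, without sinusoidal 2), higher by 3.62 ± 0.58 (adjusted p = 0.00225), and Acta2, the smooth muscle actin gene, stood at 1.94, 3.34 and 0.88 against 4.29, 3.82 and 3.96 without overlap (-1.97 ± 1.51, adjusted p = 0.439; adjusted p = 0.0274 on the log2 of CPM plus 10). The median of the mural list was -0.52 and turned to 0.62 after quantile normalization. The small lists of osteoclasts, skeletal muscle and Schwann cells had 1 of 9, 1 of 8 and 2 of 6 called lower, against 8.15% of all genes. Each of these counts changed without at least 1 library.

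Proteases and integrins were called in both directions, as were all genes together (4.75% higher and 8.15% lower). Timp3, a matrix-bound inhibitor of metalloproteases, stood at 9.59, 10.13 and 10.11 log2 CPM in CD200-high and 8.54, 8.64 and 8.61 in arterial libraries (difference 1.35 ± 0.21, adjusted p = 0.0018). Mmp8, the neutrophil collagenase, stood at 6.63, 6.25 and 7.46 against 9.08, 9.22 and 9.92 (difference -2.62 ± 0.36, adjusted p = 0.000966). Of 33 genes of matrix proteases and inhibitors 3 were called higher (1 to 4, without arterial 3) and 2 lower (1 to 3, without arterial 1, 2 or 3). Such small counts do not set that list apart from all genes. Of 22 integrins 2 were called higher (0 to 2, without arterial 1, 2 or 3 or CD200-high 1, 2 or 3), Itgb1, the common beta chain (0.82 ± 0.22, adjusted p = 0.0324), and Itga10, a collagen-binding chain (3.98 ± 1.09, adjusted p = 0.0333). Another 5 were called lower (4 to 6), and they included Itgb2, the chain of leukocyte integrins (-2.4 ± 0.4, adjusted p = 0.00274), and Itgb3, of platelets and osteoclasts (-3.39 ± 0.64, adjusted p = 0.00551; adjusted p = 0.0504 with voom).

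Transcripts of blood lineages were lower in CD200-high libraries in every large lineage list. Neutrophil genes took 0.861 ± 0.256% of listed reads in the CD200-high against 3.05 ± 0.658% in the arterial libraries (mean ± SD, n = 3) and 18 of 20 were called lower (13 to 19). Chil3, a chitinase-like protein of myeloid cells, stood at 7.83, 7.8 and 8.28 log2 CPM against 9.92, 9.91 and 10.22 (difference -2.04 ± 0.29, adjusted p = 0.00109), and Mpo, the myeloperoxidase of granules, was lower as well (-1.96 ± 0.3, adjusted p = 0.00182). Of 21 B cell and plasma cell genes 15 were called lower (10 to 15), early B cell genes among them, and Xbp1, a factor of plasma cells and of secretory cells in general, was called higher (0 to 1, without arterial 1 or 2 or CD200-high 1 or 2) by 0.9 ± 0.22 (adjusted p = 0.0206). Dntt, the terminal transferase active while antibody genes are joined, stood at -0.35, 0.2 and 1.0 against 8.01, 6.77 and 6.23 (difference -6.72 ± 0.59, adjusted p = 0.000129). Vpreb1, of the surrogate light chain, stood at 2.41, 3.87 and 3.25 against 9.67, 8.68 and 7.99 (difference -5.6 ± 0.74, adjusted p = 0.000859). Megakaryocyte and platelet genes took 0.0159 ± 0.00179% of listed reads in the CD200-high against 0.213 ± 0.0998% in the arterial libraries (mean ± SD, n = 3), with 12 of 16 called lower (9 to 12). Gp1ba, a platelet receptor for von Willebrand factor, stood at 7.45, 6.23 and 5.59 in arterial and -2.11, -2.53 and -3.76 in CD200-high libraries, where 4 reads were listed in all, a ratio of 870-fold (95% counting interval 340 to 3194) with adjusted p = 0.000286. This counting interval pools the reads of the 3 libraries and leaves out the spread between them. Pf4, a platelet chemokine, was lower (-3.89 ± 0.47, adjusted p = 0.000507).

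Red cell and macrophage genes gave the same picture. Of 19 erythroid genes 11 were called lower (6 to 13, without arterial 1), with Car1, a carbonic anhydrase of red cells, at 4.36, 3.34 and 4.04 log2 CPM against 7.82, 8.01 and 7.78 (difference -3.96 ± 0.55, adjusted p = 0.0011) and Hbb-bs, a beta globin with a near-copy, at -2.43 ± 0.35 (adjusted p = 0.0013). Of 24 macrophage and dendritic cell genes 11 were called lower (8 to 14). Slc40a1, the iron exporter of macrophages that recycle red cells, stood at 5.69, 6.13 and 5.48 against 7.78, 9.09 and 8.62 (difference -2.73 ± 0.38, adjusted p = 0.000998), and Hmox1, which breaks down haem, at 5.3, 4.98 and 6.2 against 7.49, 9.14 and 8.26 (difference -2.8 ± 0.45, adjusted p = 0.00227). MHC class II genes had 5 of 11 called lower (2 to 6, without arterial 1, 2 or 3 or sinusoidal 1 or 3) and a median of -2.88, among them Ctss, the cathepsin that trims the invariant chain, at 3.35, 3.14 and 3.66 against 6.25, 6.2 and 6.33 (difference -2.88 ± 0.57, adjusted p = 0.00713). T and NK cell genes had 3 of 10 called lower (0 to 4, without arterial 3 or CD200-high 1), and stem and progenitor genes 6 of 14 (3 to 6, without arterial 2). Within the arterial libraries replicate 1 was the highest in B cell (0.604%), erythroid (2.35%) and megakaryocyte genes (0.324%), and replicate 3 in neutrophil genes (3.79%).

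**Figure D4:**
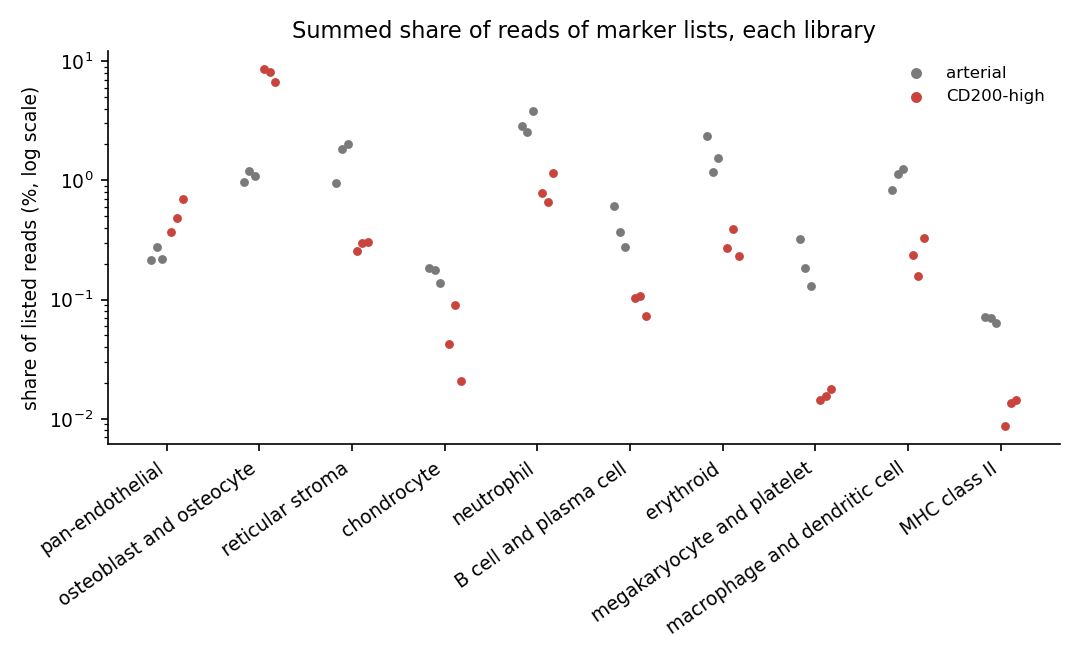
Summed share of listed reads (%, log scale, vertical axis) of 10 lists in each of the 3 arterial (grey) and 3 CD200-high (red) libraries. The pan-endothelial and the osteoblast and osteocyte lists lie higher in all CD200-high libraries, and the 8 other lists lie lower in all of them.

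Genes of DNA replication and mitosis were lower in CD200-high libraries. Of 32 replication genes 20 were called lower (10 to 21, without arterial 1, 2 or 3) and the median was -2.03. Voom called 13 of them lower and the 6 libraries alone 14. Of 30 mitosis genes 17 were called lower (10 to 20, without arterial 1) and 28 did not overlap, with a median of -2.79. For mitosis voom called 21 lower and the 6 libraries alone 13. Many of these genes share promoter elements, which are shown for 4 of them called lower over the 200 bases before the start, from RefSeq (GRCm38.p6) with the matched letters in capitals. The E2F letters TTCCCGC or TTCGCGC or TTGCCGC or TTGGCGC on either strand, which overlap one another where they meet on opposite strands, mark Mcm6 (chr1:128359706-128359905, minus strand) and Rrm1 (chr7:102441495-102441694, plus strand). The cell cycle homology letters TTTGAA, sought on either strand, mark Ccnb2 (chr9:70421555-70421754, minus strand) and Cdc20 (chr4:118437344-118437543, minus strand). The Ccnb2 window holds 2 matches, of which only 1 lies in the bases shown, 167 bases before the start. The Mcm6 window holds 5 matches, of which 4 are shown.
Mcm6: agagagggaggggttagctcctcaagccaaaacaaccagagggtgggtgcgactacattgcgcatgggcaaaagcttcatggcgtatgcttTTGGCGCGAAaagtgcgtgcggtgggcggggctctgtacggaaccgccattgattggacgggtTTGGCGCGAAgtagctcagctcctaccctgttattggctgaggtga
Rrm1: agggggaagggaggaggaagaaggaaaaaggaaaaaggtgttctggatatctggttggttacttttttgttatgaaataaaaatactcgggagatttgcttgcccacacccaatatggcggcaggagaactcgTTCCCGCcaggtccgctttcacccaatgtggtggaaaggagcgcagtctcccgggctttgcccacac
Ccnb2: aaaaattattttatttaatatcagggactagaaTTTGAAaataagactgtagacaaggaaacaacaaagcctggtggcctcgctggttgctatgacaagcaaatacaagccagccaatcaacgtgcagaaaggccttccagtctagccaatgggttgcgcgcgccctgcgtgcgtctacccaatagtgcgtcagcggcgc
Cdc20: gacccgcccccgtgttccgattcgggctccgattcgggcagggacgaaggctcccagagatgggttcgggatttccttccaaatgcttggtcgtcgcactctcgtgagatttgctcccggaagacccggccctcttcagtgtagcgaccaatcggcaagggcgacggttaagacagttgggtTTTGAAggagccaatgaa

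The E2F letters were in 62.5% of the 32 windows of replication genes against 14.9% of the 15222 windows of all tested genes. Of the 17 replication genes with such a window 12 were called lower (6 with voom), and of the 10 with a window without the letters 5 were. The TTTGAA letters were in 76% of the 25 windows of mitosis genes against 13% of all windows. Of the 18 genes with them 10 were called lower (13 with voom), and 4 of the 6 without. A match is a description of the letters, and the called genes were thus not limited to those that carry them. Rrm1, the large subunit of ribonucleotide reductase, stood at 4.4, 4.18 and 4.23 log2 CPM in CD200-high and 6.93, 6.99 and 6.39 in arterial libraries (difference -2.5 ± 0.21, adjusted p = 9.39e-05). Mcm6, of the replicative helicase, stood at 4.72, 5.65 and 4.32 against 7.39, 7.06 and 6.87 (difference -2.21 ± 0.3, adjusted p = 0.00102). Cdc20, the activator of the anaphase-promoting complex, stood at 2.16, 3.79 and 3.4 against 6.33, 6.39 and 5.65 (difference -3.0 ± 0.49, adjusted p = 0.00252), and Ccnb2, a mitotic cyclin, at 2.98, 3.71 and 2.17 against 6.16, 5.71 and 5.86 (difference -2.96 ± 0.48, adjusted p = 0.00252). None of these 4 genes overlapped. Pcna, the sliding clamp, was at 4.7, 6.8 and 5.94 against 7.61, 6.97 and 6.96 and was not called (-1.36 ± 0.42, adjusted p = 0.0571), though it was without CD200-high replicate 2 (adjusted p = 0.00949). Erythroid, B cell and neutrophil genes, whose precursors divide in the marrow, were lower in the same libraries, and their part in the replication and mitosis genes was not tested.

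Among housekeeping lists, calls were frequent for mitochondrial transcripts and for glycolysis genes, both lower in CD200-high libraries. The 13 protein genes of the mitochondrial genome took 2.71 ± 0.797% of listed reads in the CD200-high against 5.42 ± 0.963% in the arterial libraries (mean ± SD, n = 3), and 10 were called lower (2 to 13, without arterial 1 or 3 or CD200-high 1 or 2). The 6 libraries alone called 5 of them lower and voom 12. mt-Co1, of cytochrome oxidase, stood at 12.001, 12.15 and 12.71 log2 CPM against 13.1, 13.14 and 13.6 (difference -0.99 ± 0.19, adjusted p = 0.00526; adjusted p = 0.0525 without the trend), and mt-Nd5, of complex I, was lower by the same test (-1.16 ± 0.23, adjusted p = 0.00763). The 41 nuclear genes of the respiratory chain had a median of -0.01, with 1 called higher (0 to 1, without arterial 2 or 3 or CD200-high 1) and 2 lower (0 to 2, without arterial 1, 2 or 3, CD200-high 1 or 2, type H 1 or sinusoidal 1, 2 or 3). Of the 47 cytosolic ribosomal protein genes limma and voom called none, 2 higher and 1 lower at an unadjusted p under 0.05, and their median was -0.01 (-1.29 with equal pan-endothelial medians). Glycolysis and hypoxia genes had 9 of 29 called lower (4 to 11, without arterial 1 or 3) and a median of -0.48, with Gapdh, at 9.82, 9.96 and 10.07 against 10.99, 10.82 and 10.995 (difference -0.99 ± 0.11, adjusted p = 0.000326), and Eno1, the enolase (-0.84 ± 0.12, adjusted p = 0.00135). For this list the 6 libraries alone called 5 lower and voom 9. Among 30 genes of sterol and fatty acid synthesis 2 were called higher (0 to 2, without arterial 1, 2 or 3, CD200-high 1 or 3 or sinusoidal 1 or 3) and 2 lower (1 to 5, without arterial 3, CD200-high 3 or type H 2 or 3), with Lss, the lanosterol synthase, at 2.51, 4.96 and 1.32 in arterial and without reads in CD200-high libraries (at least 22.2-fold lower, adjusted p = 0.00308). Of 34 lysosomal genes 1 was called higher (1 to 2, without arterial 2, CD200-high 3 or type H 2), the tetraspanin Cd63 (1.34 ± 0.2, adjusted p = 0.00161), and 6 lower (3 to 7, without arterial 3), Ctsd, a cathepsin, among them (-0.92 ± 0.18, adjusted p = 0.00684; adjusted p = 0.0586 without the trend). Heat shock genes had 3 of 20 and MHC class I genes 3 of 18 called lower, against 8.15% of all genes. Of the latter list 8 were lower without overlap, against 19% of all genes. The 6 libraries alone called 1 heat shock gene and 0 MHC class I genes lower, and voom 2 and 3. Both of those fits also called 2 heat shock genes higher. Few calls were made for the interferon response (1 of 33 higher) and the Hox and TALE factors (1 of 34 higher), against 4.75% of all genes. The primary cilium likewise had few (1 of 51 higher and 2 lower). Each of these counts of calls in the 12-library fit, heat shock and MHC class I included, changed without at least 1 library.

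**Figure D5:**
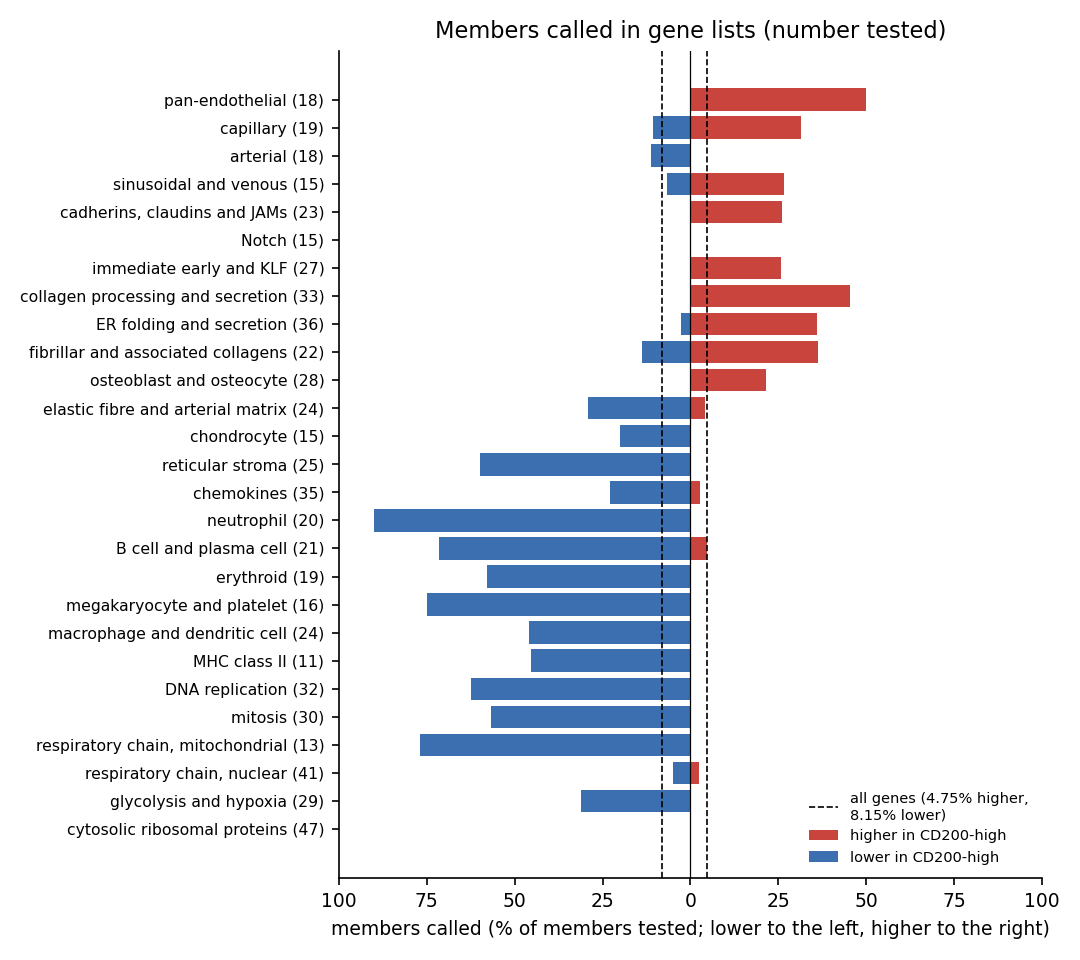
Share of tested members (%, horizontal axis) called higher (red, to the right) and lower (blue, to the left) in CD200-high libraries for 27 gene lists, with the number tested in brackets. Dashed lines mark all genes, 4.75% higher and 8.15% lower; collagen processing, secretion and pan-endothelial lists lie beyond the right line and blood, stroma, division and mitochondrial lists beyond the left one.

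Many of the widest differences were in genes with reads in one population and few or none in the other; unnamed gene models, some of which reached larger bounds, were not eligible for naming. Adipoq had 8.28, 9.19 and 9.14 log2 CPM in arterial and -2.11, -2.53 and -1.44 in CD200-high libraries, where 6 reads were listed in all, a ratio of 2509-fold (95% counting interval 1153 to 6838) with adjusted p = 2.01e-06. Ranbp3l, a nuclear export factor linked to BMP signalling, stood at 5.91, 5.51 and 6.29 log2 CPM in CD200-high and -3.49, -5.01 and -4.23 in arterial libraries, where 1 read was listed in all, a ratio of 2424-fold (95% counting interval 435 to 95792) with adjusted p = 0.000391. Nhlrc1, which encodes the ubiquitin ligase malin, had 5.71, 4.61 and 2.81 and no arterial reads, at least 81-fold higher (adjusted p = 0.000492). Lrrc55, an auxiliary subunit of potassium channels, had 3.1, 4.79 and 4.33 and no arterial reads, at least 65.6-fold higher (adjusted p = 0.000521). These levels are modest, and Nhlrc1 was the most scattered of the 3. Its bound is taken on the mean log2 level, and CD200-high replicate 3 alone gives a smaller fold. Gsg1, a germ cell gene by name, was at least 43.5-fold higher and Gpr135, an orphan receptor, had 387 reads against 4, a ratio of 128-fold (95% counting interval 49.6 to 472) with adjusted p = 0.00225. On the other side Slc14a1, a urea transporter, had 6.29, 5.44 and 5.41 in arterial and no reads in CD200-high libraries, at least 153-fold lower (adjusted p = 3.48e-05). Gfra2, a receptor for neurturin, was at least 124-fold lower and had 5.74, 5.88 and 4.62 in arterial libraries. Il7r, the interleukin 7 receptor of lymphoid precursors, stood at 6.49, 5.43 and 5.79 in arterial and -2.11, -4.85 and -3.76 in CD200-high libraries, where 2 reads were listed, a ratio of 1028-fold (95% counting interval 284 to 8495) with adjusted p = 0.000243. Ms4a4d, of a family of membrane-spanning proteins, was at least 149-fold lower. The separation of these genes was a condition of naming them and adds no support. The counting intervals pool reads over libraries, so they are no intervals for the difference between populations. Replicates of a population differed by far more than counting, with a chi-square per degree of freedom of 53.1 to 92.8 between pairs. Genes with no reads in CD200-high made up 293 of the calls and genes with none in arterial libraries 19, beside the smaller number of genes detected in CD200-high libraries. Such genes passed the read filter only through other libraries. How many of all tested genes lacked reads in each population was not counted, so these counts are no result about the genes.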

How the data were processed

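The deposited table holds log2 CPM (counts per 1000000) with 0.5 read added, as the authors made it and as its values show; undoing the log gives whole reads within 0.01. Trimmomatic, STAR, SAMtools, deepTools, featureCounts and R 4.3 are named in the submitters' processing notes, with a human build although the cells are from mouse; settings, annotation, strand and scaling method are not given in the sources used here. Unstranded counting would add reads of overlapping antisense genes, and 129 tested genes share all reads with another gene. Genes with at least 10 reads, at the mean effective library size, in at least 3 of 12 libraries were kept (17086 of 17362). Limma 3.58.1 (R 4.3.3) with a mean-variance trend was fitted to the deposited values of all 4 populations, without a replicate block, and p-values were adjusted over all genes tested by Benjamini-Hochberg. The fit was tested on simulated data. Members, lists and alternatives were chosen with earlier results of these data known. Genes were eligible for naming if they were sorting antigens, among the 12 largest separated rises or falls with at least 100 reads, among the first 3 of a list, or among the up to 8 called members of a list with the smallest p in each direction. Of these the text gives mainly genes called in every fit that left out 1 library. The alternatives were other scalings, offsets, filters, tests and sets of libraries.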

Additional observations from a re-analysis of the deposited data

How the results depend on the processing

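Of the genes named, 114 were called and 108 of them also in each of the 12 fits that left out 1 library, the exceptions being Ackr1, Emcn, Fcgr2b, Itga10, Itgb1 and Xbp1. Being called in those fits mainly decided which genes the text gives, so this share does not measure stability. Of all 2204 genes called, those that kept the call ran from 1286 (without arterial replicate 1) to 2146 (without type H replicate 2). Without arterial replicates 2 and 3 they were 1396 and 1311. Over those fits the count of called genes ran from 1353 (without arterial replicate 1) to 2458 (without type H replicate 2), that of higher genes from 539 to 884 and that of lower genes from 814 to 1574. The absence of arterial replicate 1 gave the lowest of all 3 counts and moved each by over 1.5 times. Without arterial replicate 3 there were 1397 called, 547 higher and 850 lower. There the counts of called and of lower genes also moved by over 1.5 times. With equal medians of the pan-endothelial list in all libraries, 5944 genes were called, 112 higher and 5832 lower. Under that shift Car4 stood at 0, Cdh5 at -0.81, Col4a1 at -0.21, Esam at -0.03, F11r at -0.04, Fabp4 at -0.18, Gja5 at -0.29, Icam2 at -0.28, Itgb1 at -0.46, Lgals1 at -0.08, Ly6a at -0.87, Pecam1 at -0.15, Runx2 at -0.62, Stab2 at -0.32 and Xbp1 at -0.38, and the shift itself sets these signs. Hspa5 ran from -0.33 to 0.03 over the fits without 1 library and was above 0 without CD200-high replicate 3. Without the trend 533 genes were called higher. On the log2 of CPM plus 10, 1386 genes were called higher, and the cause was not tested. Totals of listed reads, quantile normalization, limma voom, limma without the trend, a log2 of CPM plus 1, both other filters and the 6 libraries alone kept the count of called genes between 1611 and 2942.

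Whether the replicate numbers mark shared samples is not stated, and the correlations give no sign of it: deviations of same-numbered CD200-high and arterial libraries correlated at 0.02, -0.01 and 0.03 over 13745 genes, against -0.04 to 0.02 for other numbers. With the number as a block 2070 genes were called, 758 higher and 1312 lower, and no named gene changed its call. The edgeR and DESeq2 fits and voom with TMM scaling were planned and not run; voom was run on the recovered reads with the deposited effective library sizes. The precision is limited by 3 libraries a population and, for genes without reads in one of them, by its depth.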
